A study of Mus musculus with 12 samples.

Results

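The 8 genes described here encode the pore-forming alpha-1 subunits of the voltage-gated calcium channels found in neurons: Cacna1a, Cacna1b, Cacna1c, Cacna1d, Cacna1e, Cacna1g, Cacna1h and Cacna1i. They were chosen by name, with earlier results of these data known, and are 8 of the 33560 genes with counts. All 8 passed the filter on low counts that kept 15443 genes for testing. Poly(A) RNA was sequenced from neurons labelled as glutamatergic, grown in vitro from mouse embryonic stem cells and harvested at day 21. Wild-type (WT) neurons were compared with neurons of the genotype Daam1-MIC_KO (KO), in which a microexon of Daam1, a gene for an actin-nucleating formin, was deleted. Neurons of each genotype received water (vehicle) or 10 µM Y-27632, an inhibitor of the kinase ROCK, for 2 h. Each of the 4 groups (WT vehicle, KO vehicle, WT inhibitor, KO inhibitor) held 3 libraries, 1 from each of 3 cell lines of its genotype, so that each of the 6 lines gave a vehicle and an inhibitor library. How the 3 lines of a genotype are related is not given in the labels used here. In the fit of all 12 libraries, p-values rest on the spread within groups, pooled over the 4 groups. Both libraries of a line count there as separate. Where the libraries of a line are summed, p-values rest on the spread between lines. With cell line as a block they rest on the spread of differences within lines. The series text speaks of hippocampus of adult mice, but every sample label names cultured neurons, and the sample labels were followed.

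Voltage-gated calcium channels open when the membrane depolarises and let calcium into the cell, where it triggers transmitter release, shapes firing and signals to the nucleus. The alpha-1 subunit forms the pore from 4 homologous repeats and sets the channel type. Cacna1c and Cacna1d encode L-type channels, which sit mainly on cell bodies and dendrites and couple activity to gene expression. Cacna1a (P/Q-type) and Cacna1b (N-type) encode the main presynaptic channels that trigger vesicle fusion, and Cacna1e encodes the R-type channel. Cacna1g, Cacna1h and Cacna1i encode the low-voltage-activated T-type channels, which open near the resting potential and support burst firing. Beta and alpha2delta subunits bring high-voltage-activated channels to the membrane and tune their gating.

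The division between high-voltage-activated and T-type genes can be read from the ring of acidic residues that selects calcium in the pore, 1 residue from each repeat. The coding sequence around the repeat III residue is shown because it separates the 2 classes. Each line gives 33 bases, 5′ to 3′ on the coding strand, of the annotated transcript with the longest reading frame, and capitals mark the codon of the selectivity residue.
Cacna1a: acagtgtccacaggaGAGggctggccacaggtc
Cacna1b: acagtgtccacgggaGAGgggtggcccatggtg
Cacna1c: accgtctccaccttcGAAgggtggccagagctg
Cacna1d: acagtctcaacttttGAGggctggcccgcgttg
Cacna1e: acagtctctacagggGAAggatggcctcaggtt
Cacna1g: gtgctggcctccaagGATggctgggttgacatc
Cacna1h: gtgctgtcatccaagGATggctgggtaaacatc
Cacna1i: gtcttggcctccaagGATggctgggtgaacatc
The 5 high-voltage-activated genes carried a glutamate codon at this position (GAG in 3, GAA in 2), and the 3 T-type genes carried the aspartate codon GAT. The same division was found in repeat IV, whereas in repeats I and II all 8 genes had a glutamate codon. Over the 33 bases of repeat III, the T-type genes shared 28 or 29 bases with each other, the other 5 shared 21 to 27 with each other, and a T-type gene shared 12 to 17 with any of the other 5. In the T-type genes the window lay within exon 24, at chr11:94426456-94426488 on the minus strand for Cacna1g, chr17:25383493-25383525 on the minus strand for Cacna1h and chr15:80376792-80376824 on the plus strand for Cacna1i (GRCm38). In the other 5 genes it was interrupted by an intron and came from 2 exons. The deposited values are 1 count per gene, so they do not separate transcripts or exons of these genes.

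The genes are large and lie on 8 different chromosomes (GRCm38, GENCODE M21 annotation). Cacna1a (ENSMUSG00000034656) is at chr8:84388440-84640246 on the plus strand, Cacna1b (ENSMUSG00000004113) at chr2:24603887-24763152 on the minus strand, and Cacna1e (ENSMUSG00000004110) at chr1:154390731-154884501 on the minus strand. The L-type genes Cacna1c (ENSMUSG00000051331, chr6:118587240-119196418) and Cacna1d (ENSMUSG00000015968, chr14:30039939-30491455) are on the minus strand. Of the T-type genes, Cacna1g (ENSMUSG00000020866, chr11:94408391-94474198) and Cacna1h (ENSMUSG00000024112, chr17:25374285-25433783) are on the minus strand and Cacna1i (ENSMUSG00000022416, chr15:80287238-80398279) is on the plus strand. Some of these loci overlap other genes on the opposite strand, and whether counting used the strand is not given in the sources used here. Cacna1d overlaps Dcp1a, with which it shares 0 of its 12621 exonic bases, and Chdh, with which it shares 589 and which held at most 13 counts in any library. Cacna1h shares 158 of 9763 exonic bases with Tpsg1, which held at most 1 count, and Cacna1c shares 0 of 21191 with Dcp1b.

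The libraries held 23253566 to 35012561 counts. The KO inhibitor library of line 3 stood apart: 39.0% of the 15443 genes tested were lower in it than in all of the other 11 libraries and 38.4% were higher than in all of them. Its summed level of 8 pan-neuronal markers was 1220 CPM (counts scaled to library size with TMM factors) against 3710 to 5380 in the other 11, and all 8 markers were below all other libraries. Its 10 glutamatergic markers summed to 237 CPM against 756 to 1080 and its 7 GABAergic markers to 220 against 470 to 666. Its 7 progenitor and cycling markers summed to 943 CPM against 41.0 to 440, its 7 oligodendrocyte lineage markers to 555 against 24.4 to 171, and its 7 astrocyte markers to 1160 against 537 to 850. All 7 progenitor markers were above all other libraries. In the oligodendrocyte lineage list Pdgfra alone held 509 of the 555 CPM, 4 of the 7 genes were above all other libraries and Mbp was below them. In the astrocyte list 5 genes were above all other libraries, and Aldoc (-1.71) and Slc1a2 (-0.74, log2 difference from the median of the other 11) were below them. The microglial genes Cx3cr1 and P2ry12, the muscle genes Myod1 and Myog and the pluripotency gene Tdgf1 were at 3 counts or fewer in every library. The 5 pluripotency markers together summed to 8.94 CPM in the KO inhibitor library of line 3 against 0.26 to 5.73 in the other 11. Of them 3 were above all other libraries and 0 below. The 5 microglial markers summed to 13.2 CPM there against 0.649 to 10.0, with 1 gene above all others and 1 below. The 7 muscle markers summed to 9.07 CPM against 5.87 to 11.6, with 2 above and 1 below. Mesenchymal markers summed to 1290 CPM in the WT vehicle library of line 2 and to 830 in the WT inhibitor library of line 3, against 30.9 to 413 in the other 10. Daam1 was at 133 to 188 CPM in 11 libraries and 67.9 in the KO inhibitor library of line 3, and a count per gene cannot check the loss of a microexon. Results below are given with and without that library. In bulk RNA, fewer cells of a type and less RNA per cell cannot be told apart.

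Per length and depth, the presynaptic channel genes were the most abundant of the 8. Levels between genes are compared in the deposited cRPKM, a read count per gene length and sequencing depth with a correction that the labels do not describe. Cacna1b was at 15.3 ± 3.55 cRPKM and Cacna1a at 15.2 ± 3.65 (mean ± SD, n = 12 libraries, as for the following levels). The T-type genes Cacna1g (9.57 ± 2.32) and Cacna1h (9.15 ± 2.66) came next, and the third T-type gene, Cacna1i, lay lower at 4.74 ± 1.69. The R-type gene Cacna1e was at 4.08 ± 0.742, and the L-type genes Cacna1c and Cacna1d were lowest at 3.91 ± 0.853 and 3.47 ± 0.342. Among the levels of all genes tested, Cacna1b stood at the 69.4th percentile and Cacna1d at the 35.5th. The 2 further alpha-1 genes, Cacna1s of skeletal muscle and Cacna1f of the retina, were at 0.0233 and 0.0175 cRPKM and did not pass the filter. Of the glutamatergic markers, Grin1 was at 119 cRPKM, Slc17a6 at 73.3, Camk2a at 9.04, Bcl11b at 3.71 and the rest at 0.0942 to 0.446 (means). Of the GABAergic markers, Gad1 was at 57.6, Slc32a1 at 55.0, Gad2 at 31.0, Lhx6 at 4.84 and the rest at 0.0925 to 0.163. The part of each neuron type in the channel levels was not tested.

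Only some neighbours in this order differed beyond their spread. Cacna1a was above Cacna1g in 12 of 12 libraries, by 5.60 ± 1.66 cRPKM (mean ± SD of the difference), and Cacna1h was above Cacna1i in 12 of 12, by 4.40 ± 1.21. In both pairs the ranges did not overlap once the KO inhibitor library of line 3 was left out. Cacna1b was above Cacna1a in 7 of 12 libraries, Cacna1g above Cacna1h in 9, Cacna1i above Cacna1e in 7 and Cacna1e above Cacna1c in 9, all with overlapping ranges. Cacna1c was above Cacna1d in 11 of 12, and the exception was the KO inhibitor library of line 3. Within each of the 11 libraries other than KO line 3 in inhibitor, the P/Q- and N-type genes lay above Cacna1g and Cacna1h, and these above the remaining 4. In the library left aside Cacna1d (3.91 cRPKM) was above Cacna1g (3.30) and Cacna1h (2.85).

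**Figure D1:**
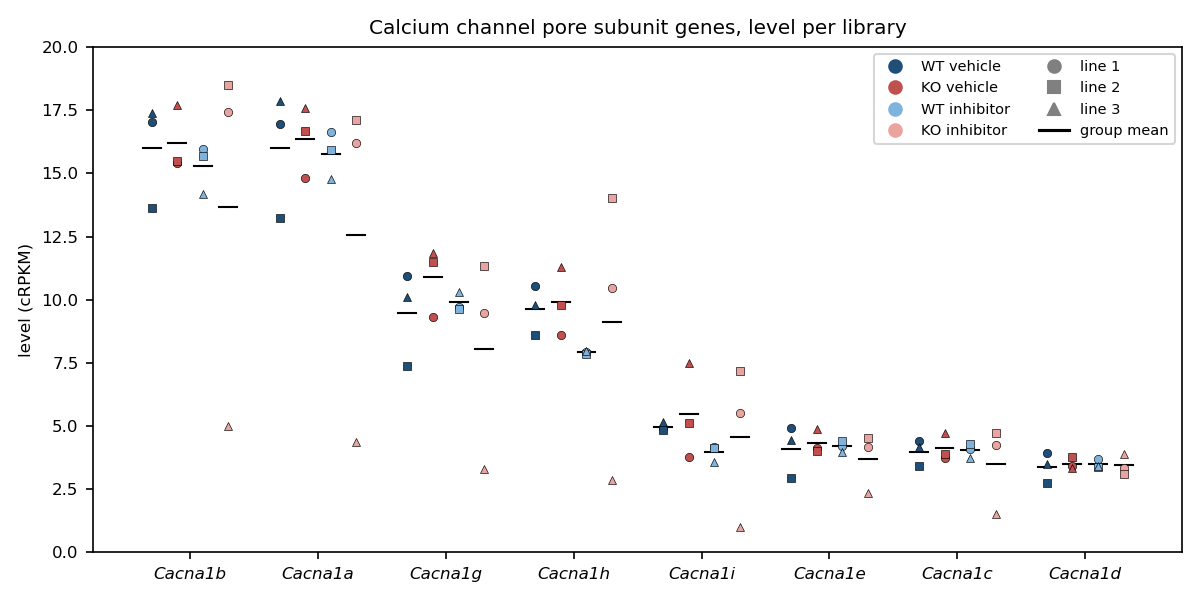
Level of each pore subunit gene in each library (vertical axis, deposited cRPKM, linear), ordered by mean; colour marks the group, shape the cell line and the bar the group mean (n = 3). Cacna1a and Cacna1b lie above the other 6 genes in each library, and in 7 genes the KO inhibitor library of line 3 lies below all others, while Cacna1d stays between 2.74 and 3.95 cRPKM throughout. In CPM that library is below all others in 39.0% of all genes tested.

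The 3 channel families took similar shares of the summed level in the 11 libraries other than the KO inhibitor library of line 3. P/Q-, N- and R-type genes together made up 49.9% to 55.4% of the sum of the 8 cRPKM values, T-type genes 32.9% to 40.4% and L-type genes 9.74% to 11.7%. The sum itself ran from 56.8 to 80.5 cRPKM in these libraries. In WT vehicle the L-type share was 11.3%, 10.8% and 10.6% (lines 1 to 3), and in KO vehicle it was 11.3%, 10.9% and 10.2%, so that the genotypes overlapped. In WT inhibitor it was 11.7%, 11.7% and 11.6%, all above the WT vehicle libraries. In KO inhibitor it was 10.7% and 9.74% in lines 1 and 2 and 22.3% in line 3. These shares are described without a test.

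**Figure D2:**
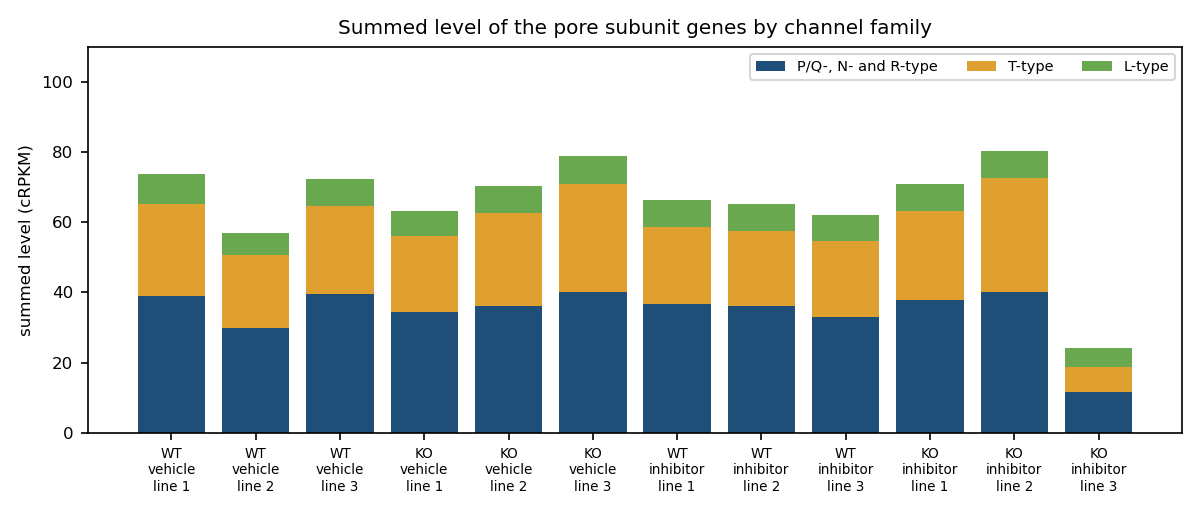
Summed level of the 8 genes by channel family in each library (vertical axis, cRPKM, from 0; bars stacked in the order P/Q-, N- and R-type, T-type, L-type). The sum is 24.3 cRPKM in the KO inhibitor library of line 3 and 56.8 to 80.5 in the other 11, and the L-type segment shrinks least, to 5.42 cRPKM from 6.14 to 8.35.

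Whether the microexon deletion altered these genes was read first in vehicle, where no difference in any of the 8 was larger than the spread between libraries. Cacna1a, the P/Q-type gene, was at 16.95, 13.23 and 17.87 cRPKM in WT vehicle (lines 1 to 3) and at 14.82, 16.68 and 17.58 in KO vehicle. Cacna1g, a T-type gene and the member with the largest estimated difference, was at 10.95, 7.39 and 10.12 cRPKM in WT and 9.31, 11.50 and 11.86 in KO. In both genes the groups overlapped, as they did in the other 6, while 7.62% of all genes tested were higher and 4.9% lower in KO without overlap. The WT library of line 2, which also held the highest mesenchymal marker sum, had the lowest cRPKM of the 3 WT vehicle libraries for all 8 genes. Its pan-neuronal markers summed to 3710 CPM against 4640 and 5090 in lines 1 and 3, its progenitor markers to 440 against 96.9 and 44.0 and its oligodendrocyte lineage markers to 171 against 38.3 and 29.4. The part of these markers in its values was not tested.

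In this vehicle comparison edgeR's log2 difference for Cacna1g was 0.24 ± 0.37 (KO minus WT, ± SE, unadjusted p = 0.538), and those of the other 7 genes ran from 0.05 (Cacna1b) to 0.17 (Cacna1i). All 8 estimates were above 0, against 7458 of all 15443 genes, and the 8 genes share the same libraries. Every member had an adjusted p of 0.999. None of the 8 was called at an adjusted p below 0.05, where edgeR called 0.0% of all genes (1.99% had an unadjusted p below 0.05), and DESeq2, which called 11 genes or 0.0718%, called none of the 8. With WT line 2 in vehicle left out, the estimates of Cacna1a, Cacna1b, Cacna1c, Cacna1d and Cacna1e were below 0, from -0.05 to -0.0017. With KO line 3 in vehicle left out, those of Cacna1b, Cacna1c, Cacna1h and Cacna1i were below 0, from -0.13 to -0.02. With KO line 3 in inhibitor left out of the shared fit, 8.57% of all genes had an unadjusted p below 0.05 in this comparison and no member did (smallest 0.119, Cacna1g). That library is in neither vehicle group, yet the SE of Cacna1a was 0.4 with it and 0.1 without it.

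In inhibitor, the KO group split between its lines, as the T-type genes Cacna1h and Cacna1i show. Cacna1h, whose channel is known for roles in pain pathways and absence epilepsy, was at 7.95, 7.84 and 7.99 cRPKM in WT inhibitor (lines 1 to 3) and at 10.48, 14.01 and 2.85 in KO inhibitor. Cacna1i, whose T-type channel is most abundant in the thalamic reticular nucleus in the brain, was at 4.18, 4.12 and 3.57 cRPKM in WT inhibitor and at 5.50, 7.19 and 1.02 in KO inhibitor. For both genes KO lines 1 and 2 lay above all WT inhibitor libraries and KO line 3 below all of them, and the groups overlapped. The groups of the other 6 members overlapped too, while 3.51% of all genes tested were higher and 7.03% lower in KO without overlap.

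With all libraries, the KO minus WT difference in inhibitor was 0.19 ± 0.44 for Cacna1h and 0.20 ± 0.54 for Cacna1i on the log2 scale (edgeR adjusted p of 0.904 and 0.918). The other 6 members had estimates from -0.34 (Cacna1a) to -0.06 (Cacna1d), and no adjusted p was below 0.856. None of the 8 was called, where edgeR called 0.0% of genes (3.5% at an unadjusted p below 0.05) and DESeq2 called 18 genes or 0.118%, none of them a member. With KO line 3 in inhibitor left out, the differences were 0.63 ± 0.14 for Cacna1h (unadjusted p = 0.0013, edgeR adjusted p of 0.481) and 0.68 ± 0.24 for Cacna1i (unadjusted p = 0.0172, edgeR adjusted p of 0.502). With that omission 9.5% of all genes had an unadjusted p below 0.05 and 0.0% passed the adjustment. Cacna1a, Cacna1b, Cacna1c, Cacna1e and Cacna1g changed sign in it, to between 0.05 and 0.23, while Cacna1d stayed below 0 at -0.12 ± 0.12. With KO line 2 in inhibitor left out instead, the estimates of Cacna1h and Cacna1i were -0.28 and -0.30.

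With KO lines 1 and 2 alone against the 3 WT lines, Cacna1b, Cacna1h and Cacna1i lay above all WT inhibitor libraries in CPM, as did 17.0% of all genes. Cacna1d lay below all of them, at 29.7 and 28.2 CPM against 30.6 to 33, as did 19.7% of all genes. The summed pan-neuronal markers also lay apart there, at 4870 and 5250 CPM in the KO libraries and 3860 to 4830 in WT inhibitor. GABAergic markers summed to 637 and 642 CPM in the KO libraries against 470 to 562 in WT, glutamatergic markers to 966 and 1050 against 756 to 868, and mesenchymal markers to 67.4 and 86.3 against 305 to 830. Relative to 1000 CPM of pan-neuronal markers, Cacna1h was at 17.2 and 21.7 CPM in KO lines 1 and 2 and 13.2 to 16.7 in WT inhibitor. On the same scale Cacna1i was at 10.8 and 13.3 CPM against 8.30 to 8.96. Both genes lay above WT on this scale too, as did 4.5% of all genes tested. Cacna1b did not, at 34.1 and 34.2 CPM against 31.5 to 35.5. Cacna1d lay below WT at 6.09 and 5.36 CPM against 6.33 to 7.98, as did 33.7% of all genes. The scale was added after the data had been seen.

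**Figure D3:**
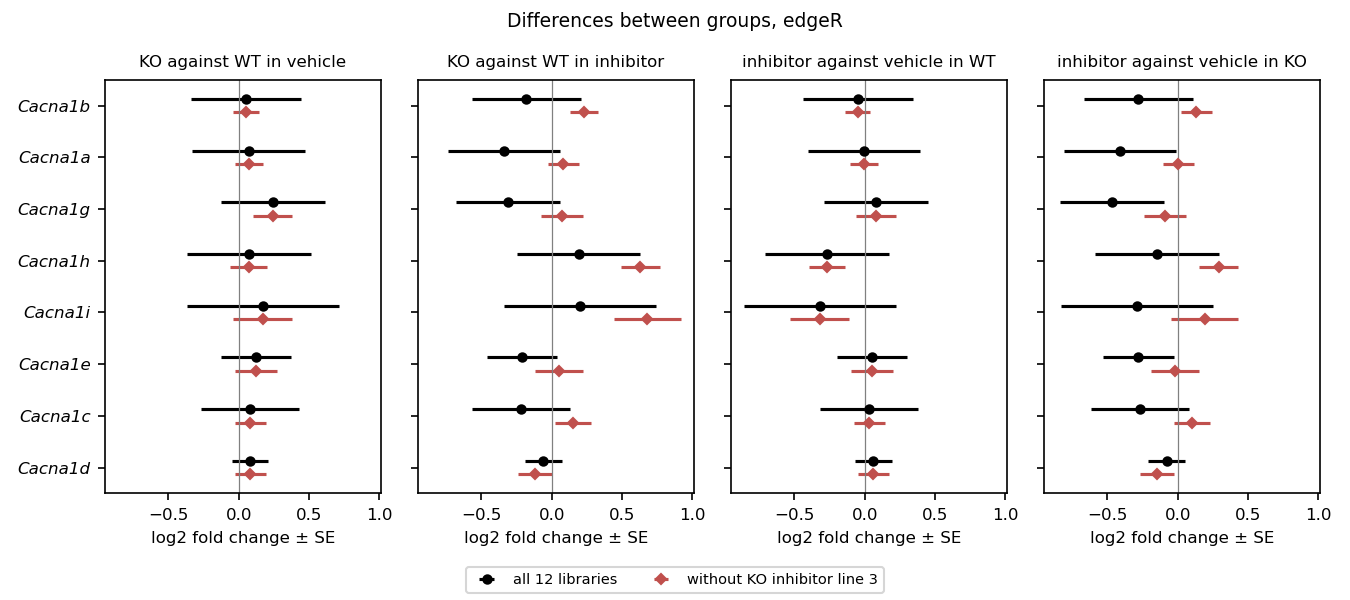
Log2 difference of each gene in 4 comparisons (horizontal axis, edgeR estimate ± SE), with all 12 libraries (black) and with KO line 3 in inhibitor left out (red). With all 12 libraries no estimate exceeds 0.47 in size; without that library Cacna1h and Cacna1i stand at 0.63 and 0.68 in KO against WT in inhibitor, and no member passes the adjusted threshold in any panel.

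The 2 h exposure to the inhibitor was read within each genotype. In WT neurons the inhibitor libraries lay below the vehicle libraries for Cacna1h and Cacna1i only. Cacna1h was at 10.54, 8.61 and 9.78 cRPKM in WT vehicle (lines 1 to 3) and at 7.95, 7.84 and 7.99 in WT inhibitor. Cacna1i was at 4.93, 4.85 and 5.15 cRPKM in WT vehicle and at 4.18, 4.12 and 3.57 in WT inhibitor. The groups did not overlap for these 2 of 8 genes, where 2.93% of all genes tested were lower without overlap and 3.04% higher. For the other 6 the groups overlapped.

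The edgeR differences in WT (inhibitor minus vehicle) were -0.27 ± 0.44 for Cacna1h and -0.32 ± 0.54 for Cacna1i, with unadjusted p of 0.551 and 0.570 and an adjusted p of 1.0 for each. Those of the other 6 ran from -0.05 (Cacna1b) to 0.08 (Cacna1g). No member and 0.0% of all genes were called by edgeR (0.304% at an unadjusted p below 0.05), and DESeq2 called 0 genes. With KO line 3 in inhibitor left out of the shared fit, the SE of Cacna1h in WT was 0.13 (unadjusted p = 0.0607, edgeR adjusted p of 1.0), where 1.36% of all genes had an unadjusted p below 0.05. A fit of the 6 WT libraries alone gave -0.29 ± 0.08 for Cacna1h and -0.34 ± 0.09 for Cacna1i (unadjusted p = 0.0104 and 0.00835, edgeR adjusted p of 1.0 for each), and 167 genes in all had an unadjusted p below 0.05 in it. With cell line as a block and KO line 3 in inhibitor left out, the unadjusted p was 0.029 for Cacna1h and 0.011 for Cacna1i (edgeR adjusted p of 1.0 for each), among 166 such genes. Against pan-neuronal markers, Cacna1h was at 15.1 to 19.3 CPM per 1000 in WT vehicle and 13.2 to 16.7 in WT inhibitor, which overlap, and Cacna1i at 9.56 to 13.0 and 8.30 to 8.96, which do not, as in 1.81% of all genes. Summed pan-neuronal markers overlapped between the groups, at 3710 to 5090 and 3860 to 4830 CPM.

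In KO neurons all 8 estimates of the inhibitor difference were below 0, from -0.47 ± 0.37 for Cacna1g to -0.08 ± 0.13 for Cacna1d, and none was called (edgeR adjusted p of 0.524 to 0.829). Of all 15443 genes 7995 had an estimate below 0, and the 8 genes share the same libraries. edgeR called 0.0% of all genes, 7.05% had an unadjusted p below 0.05, and DESeq2 called 0 genes. Vehicle and inhibitor libraries overlapped for all 8 genes, while 3.19% of all genes tested were higher and 5.65% lower without overlap. The N-type gene Cacna1b was at 15.41, 15.48 and 17.71 cRPKM in KO vehicle (lines 1 to 3) and at 17.44, 18.51 and 5.01 in KO inhibitor. The estimates with KO line 3 in inhibitor left out were 0.29 ± 0.14 for Cacna1h (unadjusted p = 0.0701, edgeR adjusted p of 1.0), 0.19 ± 0.24 for Cacna1i and -0.15 to 0.13 for the other 6, and 1.15% of all genes had an unadjusted p below 0.05. Cacna1d was then the member without overlap in CPM, at 29.7 and 28.2 in inhibitor against 30.5 to 34.1 in vehicle, where 8.43% of all genes were lower and 5.52% higher without overlap.

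Line by line, the inhibitor difference of Cacna1h (log2 CPM, inhibitor minus vehicle of the same line) was -0.38, -0.16 and -0.26 in WT lines 1 to 3 and 0.23, 0.53 and -2.10 in KO lines 1 to 3. For Cacna1i it was -0.21, -0.26 and -0.49 in WT and 0.49, 0.49 and -2.99 in KO. Both genes were lower with inhibitor in all WT lines and higher in KO lines 1 and 2, a pattern found in 514 genes or 3.33% of those tested. This pattern leaves out KO line 3, where both genes were lower, and was described after the data had been seen. No other member was lower in all 3 WT lines, where 6.9% of all genes were. The test of the difference between genotypes (KO difference minus WT difference) gave 0.12 ± 0.62 for Cacna1h and 0.03 ± 0.77 for Cacna1i, with edgeR adjusted p of 0.940 and 0.987. The other 6 members had estimates below 0, as did 7840 of all 15443 genes. Cacna1g was at -0.55 ± 0.52 (unadjusted p = 0.317, edgeR adjusted p of 0.808), the smallest p of the members. Cacna1a was at -0.41, Cacna1e at -0.33, Cacna1c at -0.3, Cacna1b at -0.23 and Cacna1d at -0.14. edgeR called 0.0% of all genes for this interaction (1.2% at an unadjusted p below 0.05) and DESeq2 called 0 genes. Leaving out KO line 3 in inhibitor, it gave 0.56 ± 0.19 for Cacna1h (unadjusted p = 0.0156, edgeR adjusted p of 1.0) and 0.51 ± 0.32 for Cacna1i (unadjusted p = 0.142), where 2.03% of all genes had an unadjusted p below 0.05. With cell line as a block and all libraries, both estimates turned negative (-0.14 ± 0.72 and -0.22 ± 1.0), and neither passed. With the block and KO line 3 in inhibitor left out, the interaction was 0.65 ± 0.14 for Cacna1h and 0.82 ± 0.13 for Cacna1i (unadjusted p = 0.00527 and 0.00133). Both had an edgeR adjusted p of 1.0 there, and 688 genes in all had an unadjusted p below 0.05. That fit was added after the data had been seen.

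Summing the vehicle and inhibitor libraries of each line gave a genotype comparison of 3 lines against 3. Cacna1h was at 74.0, 66.1 and 71.3 CPM in WT lines 1 to 3 and at 77.2, 99.1 and 54.7 in KO lines 1 to 3. Cacna1i was at 43.7, 43.1 and 41.9 CPM in WT and at 45.1, 61.3 and 39.1 in KO. In both genes KO lines 1 and 2 lay above the WT lines and KO line 3 below them. All 8 members overlapped between the genotypes, while 3.82% of all genes were higher and 4.72% lower in KO without overlap. The KO minus WT difference was 0.16 ± 0.23 for Cacna1h and 0.20 ± 0.19 for Cacna1i, the other 6 members had estimates from -0.12 to 0.03, and all had an edgeR adjusted p of 0.998. With KO line 2 left out, Cacna1h and Cacna1i had estimates of -0.08 and -0.02. No member and 0.0% of 16090 genes were called by edgeR (2.65% at an unadjusted p below 0.05), and none of the 88 genes (0.549%) that DESeq2 called was a member. Without KO line 3 the differences were 0.35 ± 0.12 for Cacna1h (unadjusted p = 0.0235, edgeR adjusted p of 0.345) and 0.34 ± 0.14 for Cacna1i (unadjusted p = 0.0481, edgeR adjusted p of 0.380), and 13.1% of all genes had an unadjusted p below 0.05.

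The widest spread in these data lay in the KO inhibitor library of line 3, in which 7 of the 8 genes were below all other libraries. In CPM 39.0% of all genes tested were below all other libraries there. With a single library there is no test of this difference, and its values are a description. Against the median of the other 11 libraries, Cacna1i was 5.18-fold lower (9.29 against 48.1 CPM), Cacna1a 4.03-fold (32.3 against 130), Cacna1h 3.57-fold (21.6 against 77.2), Cacna1b 3.36-fold (45.3 against 152) and Cacna1g 3.19-fold (24.3 against 77.7). The L-type gene Cacna1c was 2.88-fold lower (18.6 against 53.7 CPM) and the R-type gene Cacna1e 1.91-fold (33.1 against 63.1). The counts behind these values were 292 for Cacna1i and 586 to 1425 for the other 6. In all, 6 of the 8 were at least 2-fold lower, where 22.7% of all genes tested were at least 2-fold lower and 22.9% at least 2-fold higher. The median log2 difference of the 8 was -1.71, against -0.04 over all genes tested.

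Cacna1d, the second neuronal L-type gene, was the exception. It held 33 CPM in that library, within the 25.2 to 34.5 CPM of the other 11, as did 22.6% of all genes tested. In cRPKM it was at 3.91 there, against 3.34 in the vehicle library of the same line. Dcp1a, the opposite-strand neighbour that shares no exonic base with Cacna1d, was at 48.6 CPM in that library and 21.8 to 34.7 in the other 11. Its part in the Cacna1d value was not tested.

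The summed pan-neuronal markers were 3.99-fold lower in the same library than the median of the other 11. Relative to 1000 CPM of these markers, Cacna1a (26.5 CPM), Cacna1g (20), Cacna1h (17.7) and Cacna1i (7.62) were within the range of the other 11 libraries. Cacna1b was at 37.2 CPM against 28.6 to 36.4 and Cacna1c at 15.3 against 9.81 to 12.8, just above the ranges. Cacna1e was at 27.1 CPM against 11.5 to 15.4, or 2.09 times the median, and Cacna1d at 27.0 against 5.36 to 7.98, or 4.25 times. On this scale 4 of the 8 genes were within the range of the other libraries and 4 above it, where 9.51% of all genes tested were within it and 88.2% above it. Over all genes the median ratio to the other libraries was 3.87 on this scale, since every level there is divided by the low marker sum. The part of the progenitor, oligodendrocyte and astrocyte markers that were high in this library was not tested.

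Genes whose products assemble with or act beside these channels are given next, from lists of the pathway. Of the beta subunits, which bind inside the cell and promote channel trafficking, Cacnb3 (28.0 ± 2.14 cRPKM), Cacnb1 (24.4 ± 6.02) and Cacnb4 (15.4 ± 4.26) were abundant and Cacnb2 was at 1.58 ± 0.414 (mean ± SD, n = 12). Of the alpha2delta subunits, which sit outside the membrane and are bound by gabapentin in the case of Cacna2d1 and Cacna2d2, Cacna2d2 was at 33.5 ± 10.4 cRPKM, Cacna2d3 at 19.0 ± 6.91, Cacna2d1 at 6.30 ± 1.93 and Cacna2d4 at 0.323 ± 0.0938. The gamma list holds proteins that mostly act on AMPA receptors rather than on calcium channels: Cacng4 was at 37.4 ± 7.30 cRPKM, Cacng2 (stargazin) at 32.6 ± 7.37, Cacng3 at 23.8 ± 4.98, Cacng5 at 10.2 ± 1.92 and the muscle subunit Cacng1 at 0.229 ± 0.101. Cacng6, Cacng7, Cacng8, Rims1, Kcnn1 and Fam155b were not analysed here.

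Of these lists, no gene was called in any of the 6 comparisons: 0 of 4 beta, 0 of 4 alpha2delta, 0 of 5 gamma, 0 of 11 regulators of the RGK and Stac kind and calmodulins, 0 of 8 presynaptic tethers, 0 of 17 genes of calcium stores, extrusion and calcium-activated channels, and 0 of 4 genes of the NALCN leak channel complex. At an unadjusted p below 0.05 there was 1 gene in all of them. It was Itpr3, an inositol trisphosphate receptor that releases stored calcium, with 3.07 ± 1.18 in KO inhibitor against KO vehicle (unadjusted p = 0.0269, edgeR adjusted p of 0.474). Its level in the KO inhibitor library of line 3 was 42.5 CPM, against a median of 3.59 in the other 11. In vehicle (KO minus WT) the medians of the lists were 0.03 for beta, 0.27 for alpha2delta and -0.11 for gamma subunits, against -0.01 over all genes and 0.08 over the 8 pore genes.

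The gene of each list with the smallest unadjusted p was as follows, with the log2 difference ± SE. In KO against WT in vehicle these were Cacnb4 (0.28 ± 0.46), Cacna2d3 (0.70 ± 0.47, unadjusted p = 0.168), Cacng4 (-0.25 ± 0.24), Cachd1 (-0.25 ± 0.14, unadjusted p = 0.106), Snap25 (0.44 ± 0.43), Itpr3 (-1.86 ± 1.14, unadjusted p = 0.132) and Nalcn (0.23 ± 0.39), all with an edgeR adjusted p of 0.999. In KO against WT in inhibitor they were Cacnb2 (-0.44 ± 0.37), Cacna2d4 (0.24 ± 0.41), Cacng4 (-0.49 ± 0.24, unadjusted p = 0.0742), Stac (-0.44 ± 0.44), Stx1a (-0.46 ± 0.32), Ryr3 (-0.59 ± 0.40) and Fam155a (-0.39 ± 0.34), with edgeR adjusted p of 0.856 to 0.880. In the line sums they were Cacnb2 (-0.28 ± 0.27), Cacna2d3 (0.44 ± 0.21, unadjusted p = 0.0819), Cacng4 (-0.35 ± 0.16, unadjusted p = 0.0764), Stac (-0.34 ± 0.29), Rims2 (-0.21 ± 0.23), Atp2a2 (0.17 ± 0.10) and Fam155a (-0.10 ± 0.17), with an edgeR adjusted p of 0.998. Cacna2d3 and Cacng4 thus came closest among the subunits, with Cacna2d3 estimated higher and Cacng4 lower in KO, and neither passed.

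For the inhibitor the corresponding genes in WT were Cacnb2 (-0.24 ± 0.37), Cacna2d4 (-0.24 ± 0.41), Cacng5 (0.09 ± 0.26), Rrad (0.59 ± 0.47, unadjusted p = 0.238), Erc1 (-0.13 ± 0.24), Itpr1 (-0.13 ± 0.22) and Fam155a (0.09 ± 0.33), with an edgeR adjusted p of 1.0. In KO they were Cacnb2 (-0.52 ± 0.37), Cacna2d3 (-0.48 ± 0.47), Cacng2 (-0.47 ± 0.35), Stac3 (-0.58 ± 0.41), Stx1a (-0.42 ± 0.32), Itpr3 (above) and Fam155a (-0.46 ± 0.34), with edgeR adjusted p of 0.474 to 0.562. For the interaction they were Cacnb3 (-0.15 ± 0.16), Cacna2d3 (-0.57 ± 0.66), Cacng2 (-0.54 ± 0.50), Cachd1 (0.26 ± 0.20), Stx1a (-0.50 ± 0.45), Itpr3 (2.79 ± 1.57, unadjusted p = 0.107) and Fam155a (-0.56 ± 0.47), with edgeR adjusted p of 0.808 to 0.816. None of these genes passed.

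In the KO inhibitor library of line 3 most of these partners were low together with the pore genes. All 4 beta and all 4 alpha2delta genes were below all other libraries, with median log2 differences of -1.82 and -2.02, as were 4 of 5 gamma genes (-1.18), 8 of 8 tethers (-1.98) and 4 of 4 NALCN complex genes (-1.79). Of the 17 store, extrusion and calcium-activated channel genes 14 were below all others and 2 above all, with a median of -1.77. Of the 11 regulators 7 were below all others and 2 above all, with a median of -1.05. Cacnb3 was the beta gene nearest to the other libraries, at 23.7 cRPKM against 26.0 to 31.2. The sodium-calcium exchanger gene Slc8a1 had the lowest value of the lists (-3.08), and the receptor genes Itpr2 (2.11) and Itpr3 (3.56) the highest. Over all genes 39.0% were below all other libraries.

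**Figure D4:**
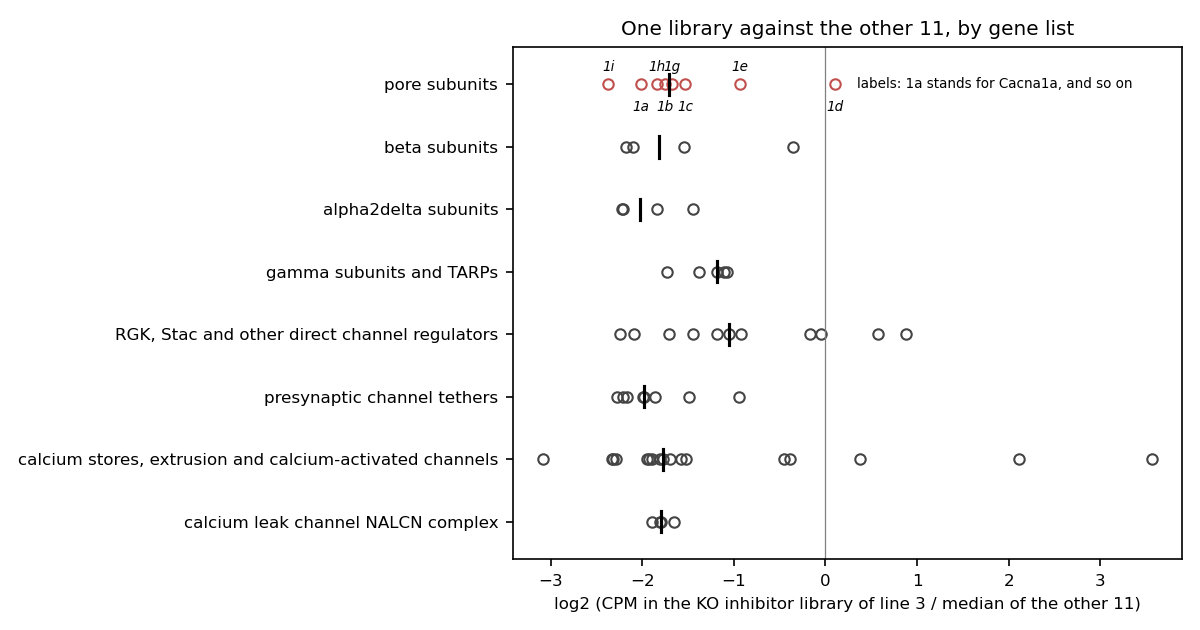
Log2 ratio of the CPM in the KO inhibitor library of line 3 to the median of the other 11 libraries (horizontal axis), 1 circle per gene and 1 row per gene list, with a bar at the list's median. The pore genes have a median of -1.71 with Cacna1d at 0.10, and each list has its median below 0, while the median over all genes tested is -0.04.

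Across the 12 libraries the members other than Cacna1d moved together. Pearson's r of log2 CPM ran from 0.827 to 0.992 over the 21 pairs among these 7 genes (median 0.95), and from -0.333 to 0.118 over the 7 pairs with Cacna1d (median -0.183). These values rest largely on the KO inhibitor library of line 3. Without it (n = 11) the 21 pairs ran from 0.323 to 0.908 (median 0.749) and the 7 pairs with Cacna1d from -0.282 to 0.586 (median 0.160). The pairs that stayed highest without it were Cacna1b with Cacna1c (0.908) and the T-type genes Cacna1h with Cacna1i (0.892), whereas Cacna1g, the remaining T-type gene, had 0.533 with Cacna1h and 0.458 with Cacna1i. All genes of these pairs were read in the same libraries and share depth and cell mix, so the correlations are descriptions.

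The genes most like each member over the 12 libraries, which changed in part or whole for all but Cacna1c once KO line 3 in inhibitor was left out, were taken by the same r among 13424 genes with a mean of at least 1 CPM. Cacna1a was most like Magi2 (0.998), a synaptic scaffold gene, and Aatk (0.997), and Cacna1b most like Camk2b (0.996), a subunit of the calcium-calmodulin kinase, and Plppr4 (0.995). Cacna1c was most like Hivep2 (0.995) and Hivep3 (0.993), and both remained its nearest genes when KO line 3 in inhibitor was left out (0.966 and 0.923). Cacna1e was most like C130080G10Rik (0.982) and Unc80 (0.973), the latter a part of the NALCN complex and the nearest without that library (0.949). Cacna1g was most like Gria3 (0.991), an AMPA receptor subunit gene, and Abca2 (0.990), Cacna1h most like Smad9 (0.988) and Epm2a (0.983), and Cacna1i most like Sez6l (0.995) and Bcorl1 (0.992). Sez6l was also among the 2 nearest to Cacna1i without that library (0.973). Cacna1d was most like Fahd2a (0.940) and Plekha5 (0.921), which were at 10.8 and 40.8 CPM in the KO inhibitor library of line 3, within their ranges of 6 to 11.8 and 29.5 to 44.4 CPM in the other 11.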

How the data were processed

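Members were matched by symbol to the Ensembl identifiers of the 12 deposited tables, each listing 36902 genes, of which 33560 have values. The deposited counts are whole numbers that the authors did not normalize. The deposited cRPKM values are RPKM with a correction not described in the labels. The build is mm10 per the submitters' processing notes; the aligner, annotation and counting rule are not given in the sources used here. Counts were tested with edgeR 4.0.16 in R 4.3.3 (TMM, filterByExpr by group, robust quasi-likelihood F test), all 12 libraries in 1 fit with a coefficient per group, and with the libraries of each line summed. The biological coefficient of variation was 0.411 (0.360 in line sums). Benjamini-Hochberg adjustment ran over all genes tested, and a gene was called below 0.05. The SE is the log2 difference divided by the square root of F. CPM use TMM factors, and log2 CPM a prior count of 2. DESeq2 1.42.0, library totals, no low-count filter, compared libraries only, replicate blocks and omission of each library were alternatives. The procedure was tested on simulated data.

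Estimates of all 8 members, singly or as a range, were given in every comparison. Of each other list the called genes were named or, with none, the gene with the smallest unadjusted p. For each member the 2 genes with the highest r were named. The members and lists were chosen with earlier results of these data known. Vehicle and inhibitor libraries of 1 cell line are paired by the labels. The correlations of their deviations from group means were 0.411, -0.553 and -0.723 in WT lines 1 to 3 and -0.191, 0.574 and -0.373 in KO lines 1 to 3. Sequences are from GENCODE M21 transcripts (GRCm38). No protein sequences were used here.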

Additional observations from a re-analysis of the deposited data

How the results depend on the processing

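No member passed under any alternative run for the 6 comparisons. The smallest adjusted p was 0.2, for Cacna1g in inhibitor against vehicle in KO with KO line 2 in inhibitor left out (-0.83, edgeR). The number of genes called over the whole table was 0 with edgeR under library totals, compared libraries only, each omission and each block. It moved in 4 cases: DESeq2 called 11 genes in KO against WT in vehicle, 18 in inhibitor and 88 in line sums, and without the low-count filter edgeR called 2 in line sums. The cause was not tested. The mean levels in cRPKM moved by less than 1 SD under each alternative. For the genes most like each member, 2 of 2 were shared for Cacna1c with KO line 3 in inhibitor left out, and 0 or 1 of 2 for the other 7; with Spearman's rank correlation 0 or 1 of 2 were shared for all 8.

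Of 248 values of the 48 member differences (log2) under the other scalings, filters, tools and blocks, 14 changed sign. In inhibitor against vehicle in WT, Cacna1a was 0.00092 with cell line as a replicate block and 0.00077 with the block and KO line 3 in inhibitor left out, and Cacna1c was -0.00072 with no low-count filter. With that block and omission, an alternative chosen after the data had been seen, inhibitor against vehicle in KO gave 0.06 for Cacna1a, 0.20 for Cacna1b, 0.21 for Cacna1c, 0.07 for Cacna1e, 0.38 for Cacna1h and 0.49 for Cacna1i, and the interaction gave 0.06 for Cacna1a, 0.25 for Cacna1b and 0.18 for Cacna1c. With the cell line block alone the interaction was -0.14 for Cacna1h and -0.22 for Cacna1i. The block by cell line, a pairing the labels give, and the block by replicate number called 0 genes and changed no call. WT and KO libraries share only a number: deviations of same-numbered libraries had r of -0.350, -0.649 and 0.167 in vehicle and 0.380, 0.649 and 0.795 in inhibitor.

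Of 528 values with a library or line left out as the single change, 53 changed sign. Ranges over these omissions follow for the differences that did. In KO against WT in vehicle they were -0.03 to 0.14 for Cacna1a, -0.03 to 0.11 for Cacna1b, -0.03 to 0.14 for Cacna1c, -0.03 to 0.19 for Cacna1d, -0.05 to 0.26 for Cacna1e, -0.04 to 0.16 for Cacna1h and -0.13 to 0.37 for Cacna1i, the sign turning without WT vehicle line 2 or KO vehicle line 3. In KO against WT in inhibitor they were -0.65 to 0.08 for Cacna1a, -0.48 to 0.23 for Cacna1b, -0.52 to 0.15 for Cacna1c, -0.41 to 0.05 for Cacna1e, -0.67 to 0.07 for Cacna1g, -0.28 to 0.63 for Cacna1h and -0.30 to 0.68 for Cacna1i. There the sign turned without KO inhibitor line 3, and for Cacna1h and Cacna1i without KO inhibitor line 2. In inhibitor against vehicle in WT they were -0.13 to 0.07 for Cacna1a, -0.16 to 0.00097 for Cacna1b, -0.08 to 0.09 for Cacna1c, -0.08 to 0.17 for Cacna1d, -0.15 to 0.19 for Cacna1e and -0.08 to 0.18 for Cacna1g, the sign turning without WT vehicle line 2 in the last 4 of these (for Cacna1c also without WT inhibitor line 2), WT vehicle line 3 for Cacna1b, and WT vehicle line 1 or 3 or WT inhibitor line 3 for Cacna1a. In inhibitor against vehicle in KO they were -0.72 to 0.0038 for Cacna1a, -0.58 to 0.13 for Cacna1b, -0.57 to 0.10 for Cacna1c, -0.62 to 0.29 for Cacna1h and -0.79 to 0.19 for Cacna1i, the sign turning without KO inhibitor line 3 (for Cacna1i also without KO vehicle line 3). For the interaction they were -0.72 to 0.0096 for Cacna1a, -0.53 to 0.18 for Cacna1b and -0.60 to 0.07 for Cacna1c (KO inhibitor line 3), -0.25 to 0.01 for Cacna1d (WT vehicle line 2), -0.36 to 0.56 for Cacna1h (KO inhibitor line 2) and -0.47 to 0.51 for Cacna1i (5 different libraries). In line sums they were -0.27 to 0.06 for Cacna1a, -0.17 to 0.14 for Cacna1b, -0.18 to 0.10 for Cacna1c, -0.04 to 0.11 for Cacna1d, -0.10 to 0.06 for Cacna1e, -0.20 to 0.13 for Cacna1g, -0.08 to 0.35 for Cacna1h and -0.02 to 0.34 for Cacna1i, the sign turning without KO line 3 in the first 6 and without KO line 2 in the last 2, and also without WT line 2 for Cacna1d, WT line 1 for Cacna1e and WT line 1 or 3 for Cacna1g. The members held at least 292 counts in every library.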
